A study of Arabidopsis thaliana with 40 samples.

Results

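The genes described here are encoded by the chloroplast genome of Arabidopsis thaliana, the thale cress. They were chosen as every row of the count table whose identifier begins with ATCG, which gave 88 of 27416 genes, and 78 of the 88 passed the filter on low counts and were tested. The chloroplast keeps a small genome of its own that holds genes for subunits of the photosystems, the electron transport and ATP synthase complexes, Rubisco, the plastid ribosome and the plastid RNA polymerase, while most plastid proteins come from nuclear genes. A plastid-encoded polymerase, guided by nuclear-encoded sigma factors, and a nuclear-encoded phage-type polymerase transcribe it. Unlike in the cytosol, a poly(A) tail on a plastid RNA is known to mark it for decay.

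The 40 libraries came from the shoots of potted plants kept at 22 °C in 16 h days, 8 libraries in each of 5 groups. Frozen ethanol plants had stood for 6 days with the pot bottoms in 20 mM ethanol and were then kept overnight at -4 °C. Frozen water plants had the same freezing after 6 days on water. Ethanol plants and water plants had the 6 days of pretreatment without freezing. Starting plants were sampled before any pretreatment, at 14 days of age. The frozen groups are also labelled with 2 h, without a word on whether this is freezing or recovery, and hours of harvest are not given. Nothing in the labels states that replicates came from different plants, so the p-values cover the spread among these libraries, which may be technical.

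Libraries were made with Lasy-Seq, in which an oligo(dT) primer starts the reverse transcription at poly(A) stretches. A chloroplast gene's count can therefore reflect tailing and RNA decay as well as the amount of RNA. In whole shoots, fewer chloroplasts and less RNA per chloroplast cannot be told apart either. The count table carries no gene names, and the annotation used here named the product of few of the 88 genes, and 4 of these are described: clpP (ATCG00670), the plastid-encoded subunit of the Clp protease; rpl20 (ATCG00660) and rpl2 (ATCG01310), proteins of the plastid ribosome; and cemA (ATCG00530), a protein of the chloroplast envelope. The other genes are given by identifier, and no role is stated for them.

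Because the primer binds runs of A, the longest A runs on the coding strand of the 4 named genes are shown, in capitals, with up to 24 bases on either side and 5′ to 3′. Sequences and coordinates are those of the RefSeq chloroplast sequence (Pltd) of build TAIR10.1. cemA held at least 2 runs of equal length, of which the one at its start is shown. For clpP, whose gene spans Pltd:69910-71882 on the minus strand, the 2 longest runs are given. Both lay in introns, within the windows Pltd:70380-70440 and Pltd:71154-71212, which include the flanking bases.
clpP run of 13: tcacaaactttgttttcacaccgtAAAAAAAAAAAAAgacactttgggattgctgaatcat
clpP run of 11: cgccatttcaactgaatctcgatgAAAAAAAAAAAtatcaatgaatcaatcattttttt
rpl20 run of 7: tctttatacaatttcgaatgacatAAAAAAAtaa
rpl2 run of 7: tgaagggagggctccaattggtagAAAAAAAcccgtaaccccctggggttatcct
cemA first run of 6: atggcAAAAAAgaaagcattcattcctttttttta
The runs of rpl20 (window Pltd:68512-68545, minus strand), rpl2 (window Pltd:84409-84463, minus strand) and cemA (window Pltd:60741-60775, plus strand) lay in coding exons. The same rpl2 window occurred again at Pltd:154186-154240 on the plus strand, because rpl2 has 2 identical copies, and its counts are uncertain for that reason. Of 83 protein-coding chloroplast loci searched, 22 (26.5%) held a run of at least 8 A and 5 (6.02%) a run of at least 13, clpP among them. Whether any of these runs primed a read was not tested.

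Chloroplast genes made up 3.40 ± 0.575% of all counts in frozen ethanol plants, 2.99 ± 0.625% in frozen water plants, 2.42 ± 0.572% in ethanol plants, 2.03 ± 0.339% in water plants and 2.51 ± 0.509% in starting plants (mean ± SD, n = 8 each). Single libraries ran from 2.69 to 4.49% in frozen ethanol plants, 1.75 to 3.71% in frozen water plants, 1.60 to 3.44% in ethanol plants, 1.42 to 2.53% in water plants and 1.86 to 3.27% in starting plants. Both frozen groups were therefore higher on average than their unfrozen counterparts, with overlap between the groups of every comparison made here. The share is a sum over the genes and was given no test.

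**Figure D1:**
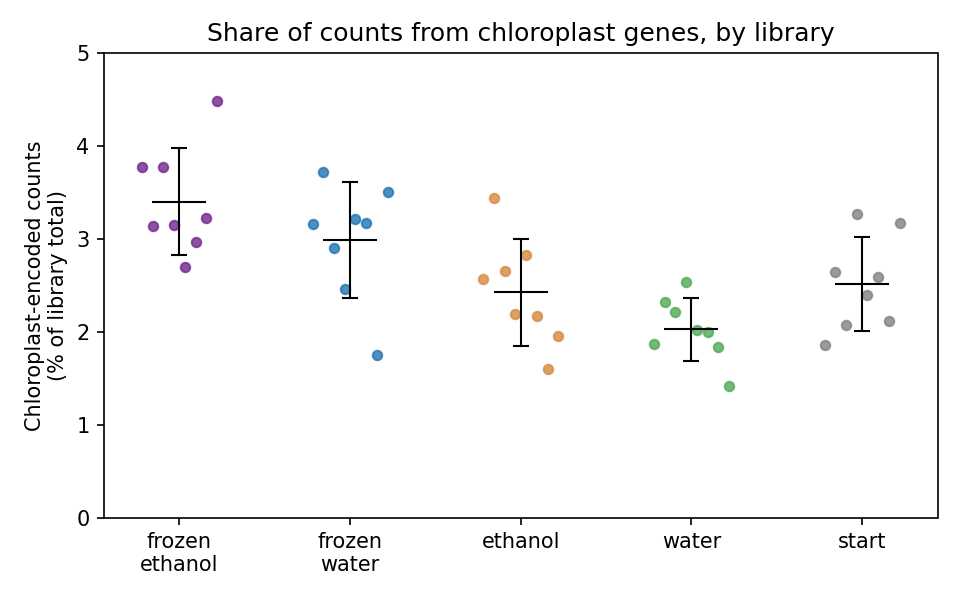
Chloroplast-encoded counts as a percentage of the library total (y axis) for the 8 libraries of each group (x axis), with the mean and SD in black. Frozen ethanol libraries average 3.40% and water libraries 2.03%, and libraries of the compared groups overlap.

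Library totals ran from 2098593 to 9211896 counts, and 3 counts corresponded to between 0.311 and 1.52 CPM (counts scaled to the library total after TMM adjustment, a correction for differences in composition), a floor that covers counting error only. Frozen ethanol plants had the highest mean total, 6536832 ± 1343960 counts, against 5207151 ± 1716472 in ethanol plants and 4734365 ± 1292122 in frozen water plants (SD, n = 8 each). In 4 of the 5 groups the shallowest library also had the lowest chloroplast share; these were frozen water replicate 7, ethanol replicate 7, water replicate 8 and starting replicate 1. In frozen ethanol plants the shallowest library, replicate 8, had the highest share, 4.49%. The part of depth in the group differences was not tested, and counts of changed genes are given below also without the shallowest library of each group. Shoot markers were abundant, with the Rubisco gene RBCS1A at no less than 26434 CPM in any library, and of 6 root markers only PYK10 reached more than 2 CPM.

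**Figure D2:**
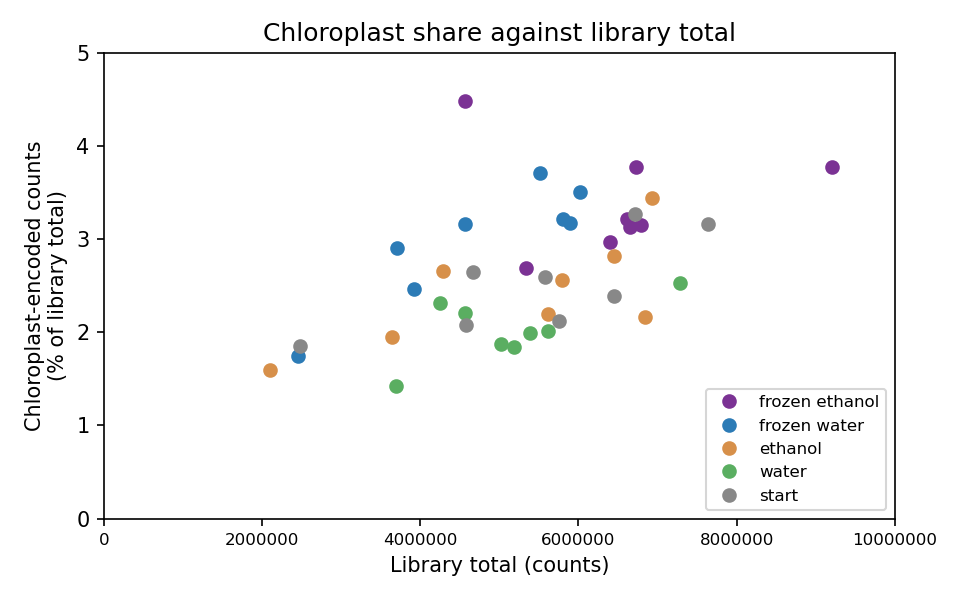
Chloroplast share of counts (y axis, %) against the library total (x axis, counts), 1 point per library, coloured by group. The shallowest libraries of 4 groups lie lowest within their group, while the highest point, 4.49%, is the shallowest frozen ethanol library.

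A handful of genes carried most of the chloroplast reads. ATCG00470 held 31.5% of the 6007046 chloroplast counts summed over libraries, ATCG00790 14.7%, ATCG01020 13.8%, ATCG01130 7.69% and ATCG00440 6.30%. Together these 5 made up between 72.7 ± 2.34% of the chloroplast counts (ethanol plants) and 75.2 ± 1.30% (water plants; SD, n = 8). ATCG00220, ATCG00740 and clpP came next and brought the sum to 82.0%. Gene lengths were not paired with most identifiers, so these shares rank reads and not levels per length.

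The remaining genes were far lower. Of the 78 tested genes, 26 averaged at least 100 CPM over the 40 libraries, 17 averaged under 10 CPM, and 74 had a read in every library. The 10 genes that were not tested had 17 to 144 counts each over all 40 libraries, 846 together, and were seen in 14 to 38 libraries.

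ATCG00470 took the largest share of the chloroplast counts in every group. Its share was 31.1 ± 5.26% in frozen ethanol plants, 29.0 ± 4.80% in frozen water plants, 29.8 ± 4.40% in ethanol plants, 33.5 ± 5.86% in water plants and 29.5 ± 5.81% in starting plants. That of clpP lay between 1.76 ± 0.298% in water plants and 2.13 ± 0.204% in starting plants. ATCG01130 took 7.83 ± 1.20% in frozen ethanol plants, 7.96 ± 1.06% in frozen water plants, 7.14 ± 0.669% in ethanol plants, 6.72 ± 1.07% in water plants and 9.03 ± 1.36% in starting plants. ATCG00340 took 1.17 ± 0.123% in frozen ethanol plants, 1.01 ± 0.123% in frozen water plants, 1.15 ± 0.138% in ethanol plants, 0.908 ± 0.117% in water plants and 0.754 ± 0.0933% in starting plants (SD, n = 8 each). The shares of ATCG01130 and ATCG00340 thus ordered the groups differently, and neither was tested.

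**Figure D3:**
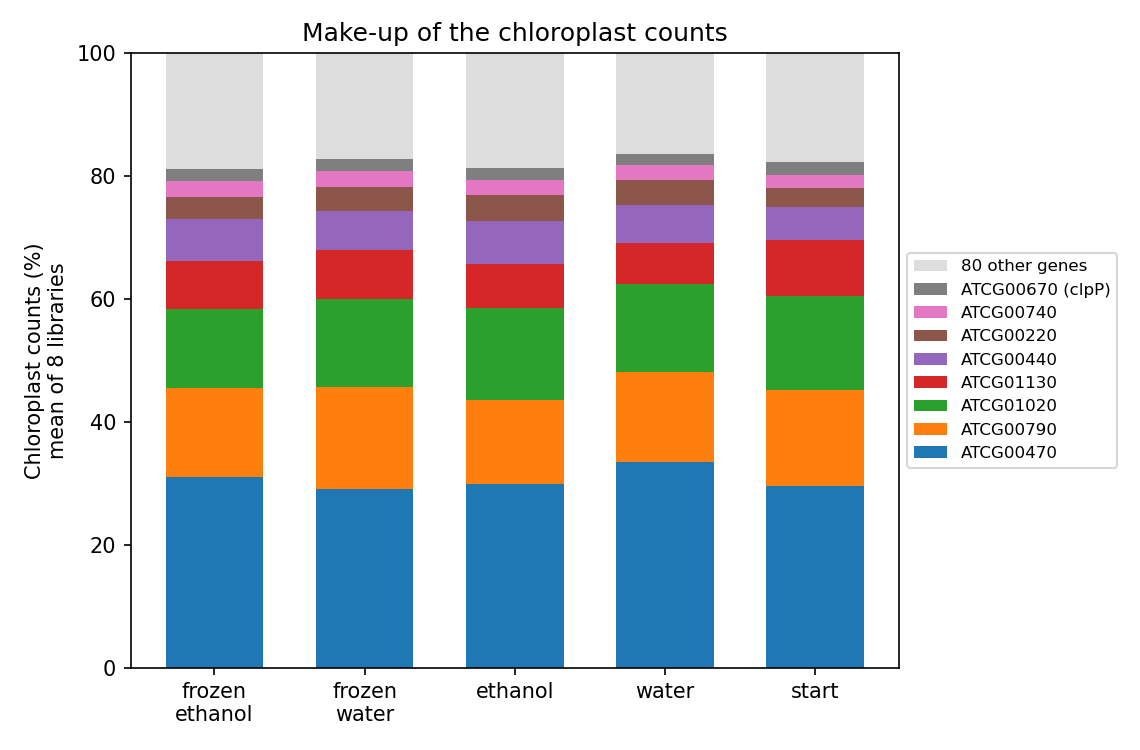
Mean percentage of the chloroplast counts (y axis, 8 libraries per group) taken by the 8 most abundant genes and by the 80 others, for each group (x axis). ATCG00470 is the largest block in every bar, between 29.0 and 33.5%.

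Within groups, the tested genes moved largely together from library to library. The correlation of a gene's log2 CPM, taken as the deviation from its group mean, with the mean of the other tested genes had a median of 0.72 over 40 libraries. These points share the library and its depth, and the value is a description. ATCG00130 lay highest at 0.91. ATCG00020 was apart from the other abundant genes at 0.07, and its level ranged from 295 to 525 CPM over all libraries, a narrow range beside the 1006 to 3007 CPM of ATCG01130.

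Freezing after water was set against water alone, to ask how the chloroplast transcripts of shoots differ in the group frozen at -4 °C. Freezing cannot be told apart here from elapsed time, hour of harvest or any recovery, and "after freezing" names the groups compared. Chloroplast genes were higher in the frozen plants: 37 of the 78 tested genes rose and none fell, beside 7.00% of all 16579 tested genes that rose (edgeR quasi-likelihood test, adjusted p under 0.05 over all genes). Below the threshold the direction was the same, with 77 of 78 genes higher, 54 of them at an unadjusted p under 0.05, and 0 lower at that level. The genes moved largely together from library to library, so such counts of genes are not independent observations, here or in the other comparisons. DESeq2 called 33 higher and 0 lower. In edgeR the median log2 fold change of the 78 genes was 0.54, against 0.00 over all tested genes. The genes called there lay between 0.36 and 0.92. In the other comparisons too, calls are those of this test.

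Of the 8 genes with most reads 5 rose. ATCG00790 had 3201, 4558 and 5781 CPM in frozen water plants (lowest, median and highest of 8 libraries), against 2121, 3243 and 3781 CPM in water plants. All frozen libraries but the lowest lay above the highest water library, and the log2 fold change was 0.61 ± 0.11 (SE; edgeR adjusted p = 0.000109). For ATCG01130 the values were 1075, 2400 and 2846 CPM in frozen water plants and 1006, 1410 and 2059 CPM in water plants, a log2 fold change of 0.67 ± 0.13 (edgeR adjusted p = 0.000317). The lowest frozen library was within the range of the water libraries for both genes. Replicate 7, the shallowest of the frozen water group, was the lowest one.

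ATCG01020 rose by 0.42 ± 0.11, ATCG00740 by 0.53 ± 0.13 and clpP by 0.52 ± 0.13 on the log2 scale. clpP, the protease subunit, had 282, 592 and 677 CPM in frozen water plants, against 264, 379 and 471 CPM in water plants. The gene with most reads, ATCG00470, did not pass the test: it had 4104, 7831 and 13649 CPM in frozen water plants and 4287, 7645 and 9286 CPM in water plants, at a log2 fold change of 0.23 ± 0.20 (edgeR adjusted p = 0.497). Its libraries spread over more than the difference between the groups. ATCG00440 (0.43 ± 0.16) and ATCG00220 (0.33 ± 0.15) did not pass either.

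Among called genes of at least 10 CPM, ATCG00360 rose most, by 0.92 ± 0.18 on the log2 scale, with 35.3, 65.7 and 100.1 CPM in frozen water plants and 18.2, 34.8 and 61.1 CPM in water plants. ATCG00130 rose by 0.79 ± 0.19 and the ribosomal protein gene rpl20 by 0.84 ± 0.25, with adjusted p = 0.00287 and 0.0151 in edgeR. rpl20 had 9.14, 13.2 and 18.3 CPM in frozen water plants and 5.03, 6.86 and 10.5 CPM in water plants, and lost its call after thinning of all libraries to the smallest total (adjusted p = 0.0821). The envelope protein gene cemA rose too (0.73 ± 0.24), while rpl2 (0.43 ± 0.29) did not pass.

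**Figure D4:**
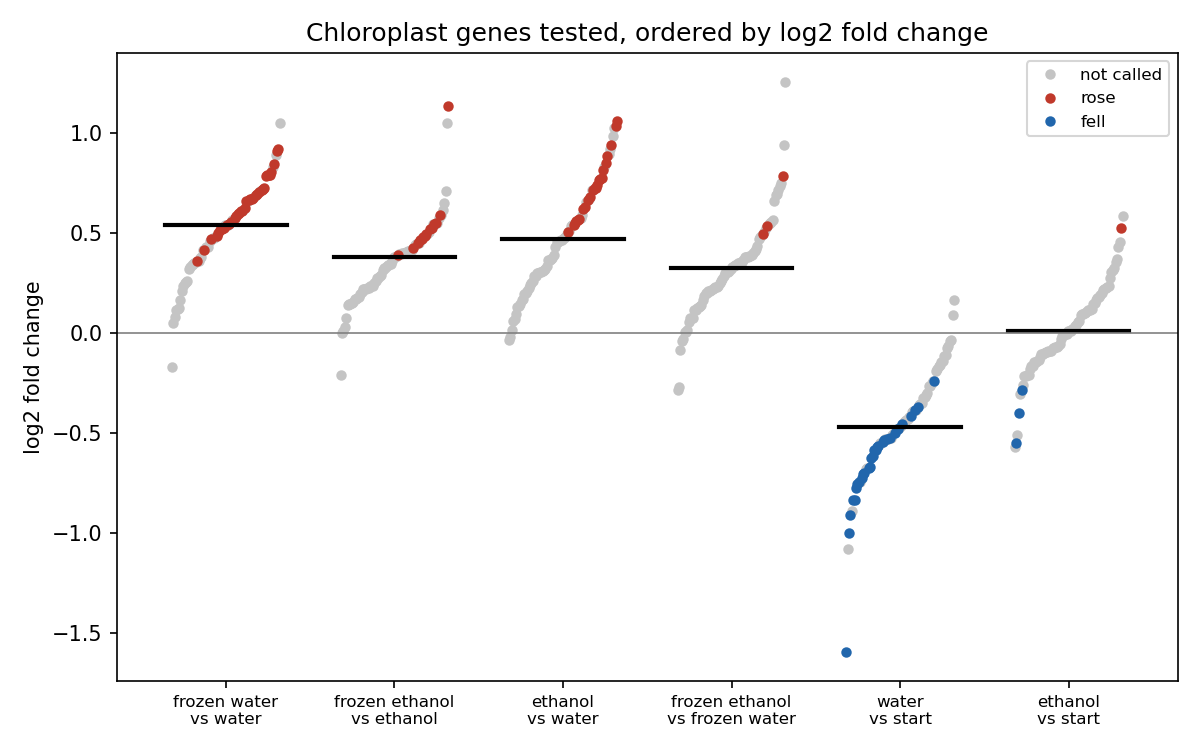
Log2 fold changes (y axis) of the 78 tested chloroplast genes in 6 comparisons (x axis), ordered by value within each, with called genes in red (rose) or blue (fell) and the median as a black line. The median is 0.54 after freezing on water, 0.38 after freezing on ethanol and -0.47 for water against start.

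Nuclear genes for the photosynthetic complexes were lower in the same frozen plants. Of the nuclear subunit genes of photosystem I, 12 of 12 fell after freezing on water, among them PSAH1 (AT3G16140; -0.57 ± 0.05) and PSAE2 (AT2G20260; -0.49 ± 0.05). Of those of photosystem II 11 of 12 fell, of cytochrome b6f, ATP synthase and Rubisco 9 of 9, of the NDH complex 5 of 10 and of the plastid ribosome 17 of 28, such as RPL10 (AT5G13510; -0.37 ± 0.06), and none of these rose. The genes for plastid transcription gave 4 risen and 1 fallen of 21, with PTAC2 (AT1G74850; 0.79 ± 0.16) and PTAC3 (AT3G04260; 0.58 ± 0.12), proteins of the transcriptionally active plastid chromosome, among the risen. The genes for plastid RNA processing, binding and decay gave 6 risen and none fallen of 21. They included PNP (AT3G03710; 0.68 ± 0.13), the polynucleotide phosphorylase that trims and degrades plastid RNA, RNJ (AT5G63420; 0.66 ± 0.15), the plastid RNase J, and PGR3 (AT4G31850; 0.81 ± 0.15), an RNA-binding pentatricopeptide repeat protein. PNP had a median of 31.1 CPM in frozen water plants, against 20.0 CPM in water plants. Across all tested genes 7.00% rose and 6.97% fell.

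One property of the libraries separated frozen from unfrozen plants. The slope of a library's log2 CPM, relative to each gene's mean, on log2 transcript length over 16416 nuclear genes was positive in all 16 frozen libraries (0.0807 to 0.237) and negative in all 24 unfrozen ones (-0.175 to -0.0206). Its part in the chloroplast results was not tested, nor was its part in the nuclear lists of either freezing comparison. Among 17 tested mitochondria-encoded genes, the other organelle genome, 2 rose after freezing on water, and mitochondria-encoded rows took 0.00635 ± 0.000914% of counts in frozen water plants and 0.00533 ± 0.000684% in water plants (SD, n = 8 each). Without the shallowest library of each group 41 chloroplast genes rose after freezing on water.

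Freezing after ethanol was set against ethanol alone, where freezing again cannot be told apart from elapsed time, hour of harvest or any recovery. Here 14 of the 78 tested genes rose and none fell, beside 4.11% of all tested genes that rose, and the median log2 fold change was 0.38, against 0.01 over all tested genes. At an unadjusted p under 0.05, 35 were higher and 0 lower in edgeR, and DESeq2 called 12 higher and 0 lower. ATCG00790 had 3591, 4583 and 5665 CPM in frozen ethanol plants (lowest, median and highest of 8), against 2049, 3379 and 4365 CPM in ethanol plants, a log2 fold change of 0.45 ± 0.11 (edgeR adjusted p = 0.00479). ATCG00740 had 643, 790.0 and 1100 CPM in frozen ethanol plants, against 374, 529.7 and 759 CPM in ethanol plants, a log2 fold change of 0.55 ± 0.13 (edgeR adjusted p = 0.00434). In both genes the median frozen library lay above every ethanol library, and the groups overlapped.

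ATCG00170 rose by 0.55 ± 0.14, ATCG01130 by 0.49 ± 0.13 and ATCG00800 by 0.48 ± 0.13, all of them called under every alternative and every omission of a library. ATCG00470 was at 0.44 ± 0.20 (edgeR adjusted p = 0.164), clpP at 0.33 ± 0.13 (0.105) and ATCG01020 at 0.14 ± 0.11 (0.475). Of the 14 called genes ATCG00520 alone rose at least 2-fold, at 1.13 ± 0.30. It had 4.48, 7.09 and 13.8 CPM in frozen ethanol plants, against 3.80 CPM at the median and 5.46 CPM at most in ethanol plants. One ethanol library had no read of it. It lies below the level of the other named genes and was picked after its values were seen.

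The count depended on single libraries. It was 9 without ethanol replicate 1 or 6, 28 without ethanol replicate 2, 6 without ethanol replicate 7 or 8, and 11 without the shallowest library of each group. A fit with log2 library total as a covariate, added after the data had been seen, left 6 genes that rose.

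Among nuclear genes for the photosynthetic complexes and the plastid ribosome, those that were called were lower in frozen plants. Those called in the lists for plastid transcription and for RNA processing, binding and decay were higher. Of the photosystem I genes 12 of 12 fell, of the photosystem II genes 11 of 12, of the cytochrome b6f, ATP synthase and Rubisco genes 6 of 9, of the NDH genes 4 of 10 and of the plastid ribosomal protein genes 7 of 28, and none rose. PSAO (AT1G08380) fell by 0.48 on the log2 scale (SE 0.06). In the plastid transcription list 7 of 21 rose, among them the sigma factor gene SIG6 (AT2G36990; 0.31 ± 0.08) and HMR (AT2G34640; 0.49 ± 0.13). In the list for RNA processing, binding and decay 4 of 21 rose, among them PNP (0.57 ± 0.13) and CRP1 (AT5G42310; 0.49 ± 0.13), a pentatricopeptide repeat protein. Across all tested genes 4.11% rose and 5.68% fell.

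The difference of both freezing effects, ethanol minus water, called no chloroplast gene in edgeR, against 0.00603% of all tested genes higher and 0.127% lower. At an unadjusted p under 0.05 there were 0, and DESeq2 called 0. The differences of the 78 genes ranged from -0.78 to 0.73 on the log2 scale, with a median of -0.16. They were negative in 65 genes and positive in 13, beside 8355 negative and 8224 positive over all tested genes. The count of 37 after water beside 14 after ethanol was thus not shown to differ for any single gene.

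Ethanol plants were set against water plants after the same 6 days. Chloroplast genes were higher on ethanol: 23 of 78 rose and none fell, beside 4.04% of all tested genes that rose, with a median log2 fold change of 0.47 against 0.01 over all tested genes. At an unadjusted p under 0.05, 51 were higher and 0 lower in edgeR, and DESeq2 called 18 higher and 0 lower. These comparisons share the water and ethanol libraries with those on freezing, so their values are not independent of each other.

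None of the 8 genes with most reads passed the test here. ATCG00470 was at 0.06 ± 0.20, ATCG00790 at 0.13 ± 0.11 and ATCG01020 at 0.28 ± 0.11 (edgeR adjusted p = 0.912, 0.562 and 0.0778). The calls lay among genes of middle and low abundance, between 0.50 and 1.06 on the log2 scale. ATCG01090 had 91.6, 136 and 162 CPM in ethanol plants (lowest, median and highest of 8), against 49.1, 66.9 and 106 CPM in water plants, a log2 fold change of 0.85 ± 0.15 (edgeR adjusted p = 2.49e-05). The median ethanol library was above every water library. ATCG01100 had 55.6, 91.5 and 121 CPM in ethanol plants, against 29.0, 52.9 and 78.4 CPM in water plants, a log2 fold change of 0.82 ± 0.15 (edgeR adjusted p = 9.05e-05).

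ATCG00580 rose most among called genes of at least 10 CPM, by 1.06 ± 0.26. It had 4.05, 9.06 and 21.6 CPM in ethanol plants, against 3.26, 3.92 and 8.69 CPM in water plants. The ethanol libraries spread widely and the groups overlapped. ATCG00330 (0.94 ± 0.25), ATCG00560 (0.89 ± 0.23), ATCG00130 (0.77 ± 0.19) and ATCG00340 (0.56 ± 0.15) rose as well. clpP was at 0.37 ± 0.13 (edgeR adjusted p = 0.0656) and rpl20 at 0.71 ± 0.25 (0.0560). The count was 36 without water replicate 4, 15 without water replicate 7 or ethanol replicate 5, and 27 without the shallowest library of each group.

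**Figure D5:**
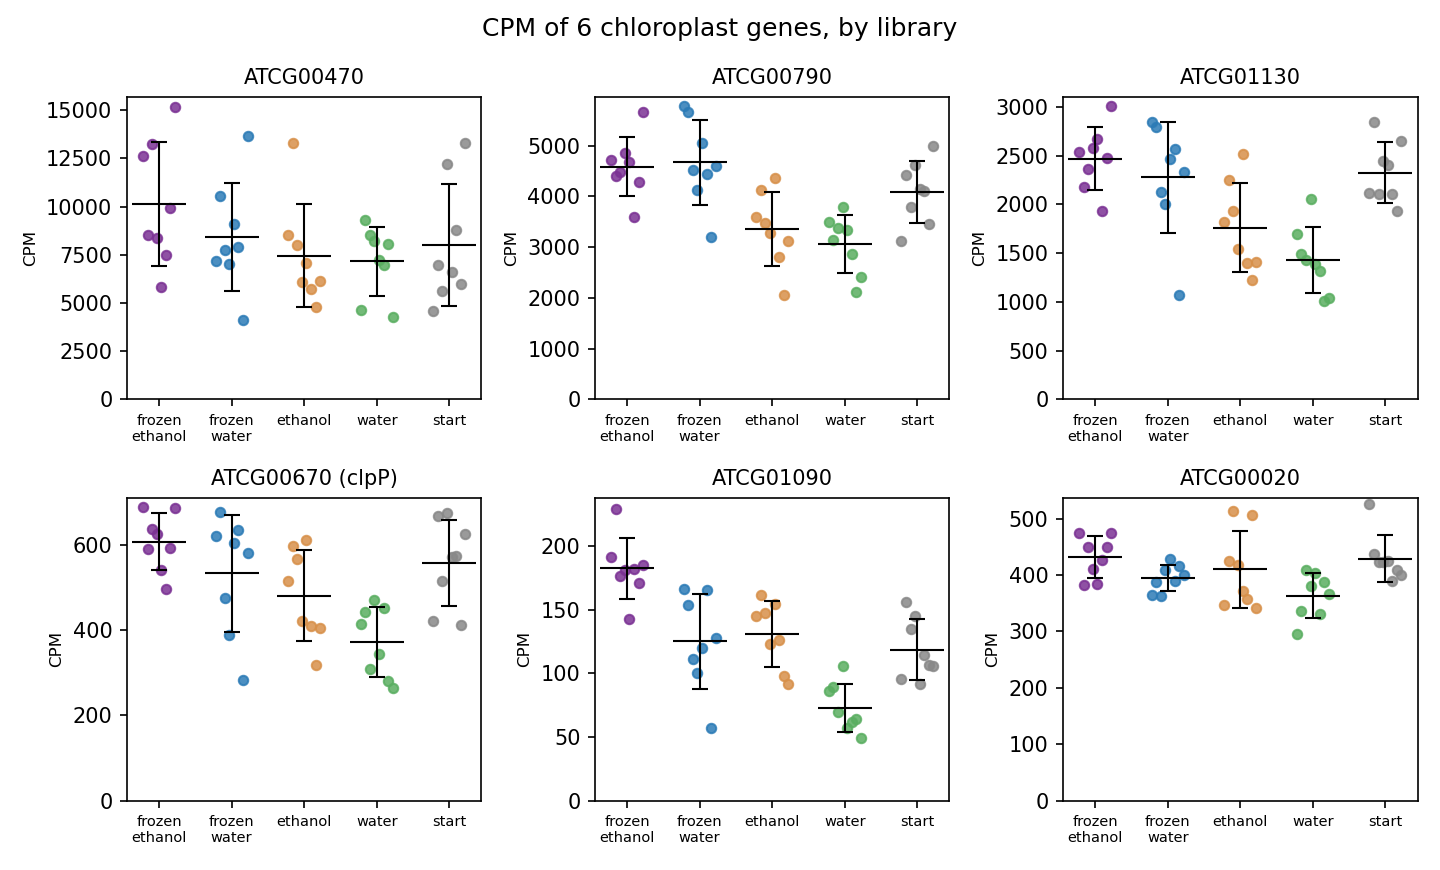
CPM (y axis, linear, from 0) of 6 chloroplast genes in the 8 libraries of each group (x axis), with mean and SD in black. ATCG01090 is highest in frozen ethanol plants and lowest in water plants (medians 182 and 66.9 CPM), ATCG00470 spreads widely within every group, and the group medians of ATCG00020 lie between 373 and 438 CPM.

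Nuclear genes were called in both directions. No photosystem I gene of 12 passed the edgeR test, and 2 of 12 photosystem II genes, 4 of 9 genes for cytochrome b6f, ATP synthase and Rubisco and 7 of 28 plastid ribosomal protein genes fell, with RBCS1B (AT5G38430), a Rubisco small subunit gene, at -0.58 ± 0.08. The NDH list gave 3 risen of 10, among them NDHS (AT4G23890; 0.38 ± 0.07). The list for plastid transcription gave 1 risen and 4 fallen of 21. The risen one was SIG5 (AT5G24120; 0.62 ± 0.16), the sigma factor known for its induction by light and stress, with a median of 15.2 CPM in ethanol plants and 9.61 CPM in water plants. In the RNA processing, binding and decay list 2 of 21 fell, among them CP33A (AT3G52380; -0.31 ± 0.08), an RNA-binding protein gene. Across all tested genes 4.04% rose and 6.00% fell.

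Frozen ethanol plants were set against frozen water plants. Of 78 genes 3 rose and none fell, beside 2.42% of all tested genes that rose and 2.83% that fell, so the count was close to that background. The median log2 fold change was 0.32, against -0.01 over all tested genes, and 28 were higher and 0 lower at an unadjusted p under 0.05, while DESeq2 called 4 higher and 0 lower. ATCG01090 had 143, 182 and 229.3 CPM in frozen ethanol plants and 56.8, 124 and 167 CPM in frozen water plants, a log2 fold change of 0.53 ± 0.14 (edgeR adjusted p = 0.0146). All frozen ethanol libraries but the lowest were above the highest frozen water library. ATCG01100 (0.49 ± 0.15) and ATCG00580 (0.79 ± 0.24) were the other 2.

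These 3 calls depended on the setting. With log2 library total as a covariate none remained, the adjusted p of ATCG01090 then being 0.119, and without the shallowest library of each group 1 gene was called. After thinning of all libraries to the smallest total the count was 5, and ATCG00580 was not among them. The count was 1 without frozen water replicate 3 or 7 or frozen ethanol replicate 1 or 3. It was 5 without water replicate 6 or frozen water replicate 2 or 6, and 6 without ethanol replicate 8, frozen water replicate 8 or frozen ethanol replicate 5. ATCG01100 lost its call without frozen ethanol replicate 1, 2 or 3 or frozen water replicate 3, 4 or 7 (adjusted p 0.0544 to 0.0762). ATCG00580 lost it without frozen ethanol replicate 1, 3, 6 or 8 or frozen water replicate 1, 3, 7 or 8 (0.0566 to 0.127), while ATCG01090 held without each single library. In the nuclear lists few genes passed the edgeR test: NDHM (AT4G37925; 0.33 ± 0.07) and PNSB3 (AT3G16250; 0.21 ± 0.06) of the NDH complex rose, as did the sigma factor gene SIG4 (AT5G13730; 0.48 ± 0.12).

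Water plants were set against starting plants, across 6 days in which age, watering and hour of harvest cannot be told apart. Chloroplast genes were lower after the 6 days: 31 of 78 fell and none rose, beside 12.5% of all tested genes that fell, and the median log2 fold change was -0.47, against -0.01 over all tested genes. At an unadjusted p under 0.05, 48 were lower and 0 higher in edgeR, and DESeq2 called 25 lower and 0 higher. Without the shallowest library of each group 30 fell.

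ATCG01130 had 1006, 1410 and 2059 CPM in water plants (lowest, median and highest of 8), against 1931, 2260 and 2841 CPM in starting plants, a log2 fold change of -0.70 ± 0.13 (edgeR adjusted p = 3.88e-05). The highest water library reached the lower end of the starting libraries. clpP had 264, 379 and 471 CPM in water plants, against 411, 572 and 673 CPM in starting plants, a log2 fold change of -0.58 ± 0.13 (edgeR adjusted p = 0.000543). ATCG01100 fell further, with 29.0, 52.9 and 78.4 CPM in water plants and 75.7, 97.2 and 130.3 CPM in starting plants, a log2 fold change of -0.91 ± 0.15 (edgeR adjusted p = 2.99e-06). The groups touched only at their ends.

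ATCG00040 fell by 0.83 and ATCG00360 by 0.84 on the log2 scale (SE 0.18 each), and ATCG00580 by 1.00 (SE 0.26). ATCG00210 had the lowest log2 fold change of the called genes, -1.59 ± 0.46. It had 0, 0.794 and 1.65 CPM in water plants and 0.824, 1.66 and 9.88 CPM in starting plants, so the highest value came from 1 starting library, replicate 2. It was picked after its values were seen. ATCG00470 (-0.16 ± 0.20), ATCG00740 (-0.11 ± 0.13), ATCG00440 (-0.12 ± 0.16) and ATCG00340 (-0.04 ± 0.15) did not pass the test.

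Beside this comparison stand 2 measurements of the libraries. The summed CPM of the 6 root markers, nearly all of it from PYK10, was 31.2 ± 9.64 in water plants and 94.4 ± 20.4 in starting plants (SD, n = 8 each), and its part in the chloroplast results was not tested. Nuclear genes gave a mixed picture: 10 of 12 photosystem I genes rose and none fell, 5 of 12 photosystem II genes rose and 1 fell, and 3 of 9 genes for cytochrome b6f, ATP synthase and Rubisco, 5 of 10 NDH genes and 5 of 28 plastid ribosomal protein genes fell, with none rising. In the transcription list 2 of 21 rose and 4 fell. Among the fallen was SIG5, at -1.89 ± 0.15, with medians of 9.61 CPM in water plants and 37.9 CPM in starting plants and no overlap. In the list for RNA processing, binding and decay 3 of 21 rose, among them CP29A (AT3G53460; 0.64 ± 0.07), an RNA-binding protein gene, and 5 fell, among them CSP41B (AT1G09340; -0.40 ± 0.05), an RNA-binding protein with endonuclease activity. Across all tested genes 12.0% rose and 12.5% fell.

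Ethanol plants were set against starting plants over the same 6 days. Chloroplast genes had no common direction here, with 40 of 78 higher and 38 lower and a median log2 fold change of 0.01, against 0.00 over all tested genes. The test called 1 gene risen and 3 fallen, beside 15.4% of all tested genes that rose and 16.6% that fell. At an unadjusted p under 0.05, 4 genes were higher and 4 lower in edgeR, and DESeq2 called 2 higher and 2 lower.

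ATCG00340 was the gene that rose, by 0.52 ± 0.15 (edgeR adjusted p = 0.00356), with 206.7, 289 and 440.2 CPM in ethanol plants (lowest, median and highest of 8) and 149, 185 and 261 CPM in starting plants. It held under every alternative and every omission of a library. ATCG00040 fell by 0.55 on the log2 scale (SE 0.18; edgeR adjusted p = 0.0119), ATCG01130 by 0.40 (SE 0.13; 0.0169) and ATCG00790 by 0.28 (SE 0.11; 0.0450). ATCG00040 lost its call without starting replicate 2 (adjusted p = 0.0828), and ATCG01130 without that library or ethanol replicate 6, 7 or 8 (0.0546 to 0.0628). ATCG00790 lost its call in 34 of the 40 omissions. Without the shallowest library of each group 1 gene rose and 3 fell. The number of falls was 0 without starting replicate 2 and 1 without ethanol replicate 6, 7 or 8. The number of rises was 2 to 4 without starting replicate 2, 3 or 4, ethanol replicate 5, 6 or 8, or frozen water replicate 4.

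The nuclear lists in this comparison held 10 of 12 photosystem I genes that rose and none that fell. Of photosystem II genes 6 of 12 rose and 2 fell. None of the genes for cytochrome b6f, ATP synthase and Rubisco rose and 5 of 9 fell, and of NDH genes 1 of 10 rose and 2 fell. Of plastid ribosomal protein genes 27 of 28 fell, such as RPL34 (AT1G29070; -0.39 ± 0.06). Of plastid transcription genes 2 of 21 rose and 9 fell, with SIG5 at -1.26 ± 0.15 and SIG1 (AT1G64860) at -0.63 ± 0.09, and of the RNA processing, binding and decay genes 3 of 21 rose and 9 fell. Root markers summed to 37.2 ± 16.5 CPM in ethanol plants and 94.4 ± 20.4 CPM in starting plants (SD, n = 8 each). The sum came nearly all from PYK10, and its part in the chloroplast results was not tested.

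The 4 genes with a named product can be followed across all groups. Medians of clpP were 609 CPM in frozen ethanol plants, 592 CPM in frozen water plants, 467 CPM in ethanol plants, 379 CPM in water plants and 572 CPM in starting plants. cemA had medians of 27.4 CPM in frozen ethanol plants, 20.8 CPM in frozen water plants, 16.2 CPM in ethanol plants, 11.4 CPM in water plants and 17.0 CPM in starting plants. Both had their lowest median in water plants. rpl20 had medians of 13.3 CPM in frozen ethanol plants, 13.2 CPM in frozen water plants, 12.1 CPM in ethanol plants, 6.86 CPM in water plants and 10.7 CPM in starting plants. In rpl20 too the water plants had the lowest median. rpl2 had medians of 42.4 CPM in frozen ethanol plants, 41.7 CPM in frozen water plants, 31.0 CPM in ethanol plants, 28.9 CPM in water plants and 33.2 CPM in starting plants. Single libraries of rpl2 reached down to 4.16 CPM in frozen ethanol plants, 4.70 CPM in ethanol plants and 6.32 CPM in starting plants. The spread of this row, ATCG01310, within these groups exceeded the differences between group medians. Because rpl2 has identical copies and the handling of multi-mapping reads is not given, these values are uncertain.

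ATCG01090, ATCG01100 and ATCG00360 likewise had their highest median in frozen ethanol plants and their lowest in water plants. ATCG00360 had medians of 87.5 CPM in frozen ethanol plants, 65.7 CPM in frozen water plants, 62.7 CPM in ethanol plants, 34.8 CPM in water plants and 60.6 CPM in starting plants. ATCG00340 differed from these in its starting level, with medians of 342 CPM in frozen ethanol plants, 305 CPM in frozen water plants, 289 CPM in ethanol plants, 188 CPM in water plants and 185 CPM in starting plants. ATCG00020 had medians of 438 CPM in frozen ethanol plants, 395 CPM in frozen water plants, 394 CPM in ethanol plants, 373 CPM in water plants and 423 CPM in starting plants, and after freezing on water its log2 fold change was 0.12 ± 0.07 (edgeR adjusted p = 0.312). The comparisons share libraries, so these orders are a description of the levels.

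No tested chloroplast gene had groups that did not overlap in any of the 6 comparisons of groups, in either direction. Across all tested genes, groups did not overlap in 0.983% of genes higher and 0.953% lower in frozen water against water plants, and in 0.627% higher and 1.51% lower in frozen ethanol against ethanol plants. The shares were 0.585% higher and 1.16% lower in ethanol against water plants, and 0.277% higher and 0.374% lower in frozen ethanol against frozen water plants. They were 4.02% higher and 4.54% lower in water against starting plants, and 5.59% higher and 6.65% lower in ethanol against starting plants.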

How the data were processed

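Raw whole-number counts per gene, deposited by the authors, were the starting point. The submitters' processing notes name bcl2fastq, Trimmomatic, HISAT2, featureCounts, DESeq2 and TAIR10; versions, strand setting and the handling of multi-mapping reads are not given there. A second table, of normalized values, was not used. Groups follow the sample titles. Replicates differed beyond sampling noise (chi-square of 3.54 to 23.0 per degree of freedom) and each counted as 1 sample.

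The 16579 genes that passed filterByExpr were fitted in 1 edgeR 4.0.16 model (limma 3.58.1, R 4.3.3) with TMM scaling and a mean per group over the 40 libraries. The quasi-likelihood F test was used with Benjamini-Hochberg adjustment, and calls were made at an adjusted p under 0.05. To obtain the SE, the size of the log2 fold change was divided by the root of F. CPM were computed with TMM-scaled totals. Scripts were tested on simulated data.

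Members and nuclear lists (photosystem I, photosystem II, cytochrome b6f with ATP synthase and Rubisco, NDH complex, plastid ribosome, plastid transcription, RNA processing with binding and decay) were chosen with earlier results of these data known, as were the mitochondrial genes and the root and green markers. Named chloroplast genes were the 8 highest in mean CPM, clpP, and for each comparison the 4 called genes with the highest and the 4 with the lowest log2 fold change at 10 CPM or more in the higher group. Genes with an annotated product are also given, apart from 1 that is not reported here. Nuclear names came from the 3 called genes per list with the smallest p. Other genes planned by name, operon or role could not be matched to identifiers. DESeq2 1.42.0 and the settings of the closing section were alternatives. Gene products, transcript lengths and A runs came from RefSeq TAIR10.1.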

Additional observations from a re-analysis of the deposited data

Results flagged for a closer look

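In 155 groups of 8 libraries, those of the chloroplast share and of the CPM of 30 named genes, 10 had a library far from the rest; chance gives about 1 in 20. ATCG00470 stood at 13311 CPM in ethanol replicate 2, with 8518 CPM in the next library, and ATCG00340 at 440.2 CPM in the same library, with 303 CPM in the next. ATCG00220 stood at 562 CPM in ethanol replicate 8, with 994 CPM in the next, and ATCG01050 at 24.1 CPM in ethanol replicate 5, with 19.0 CPM in the next. In frozen water replicate 7, the shallowest of its group, ATCG00770 stood at 5.56 CPM, with 10.8 CPM in the next, and ATCG00650 at 38.9 CPM, with 80.8 CPM in the next. ATCG00170 stood at 209.2 CPM in frozen ethanol replicate 8, with 153 CPM in the next. ATCG00680 stood at 48.9 CPM and ATCG00020 at 525 CPM in starting replicate 1, with 39.3 and 438 CPM in the next libraries, and ATCG00500 at 175 CPM in starting replicate 2, with 127 CPM in the next.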

How the results depend on the processing

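No named gene changed direction where it was called in either fit; uncalled values could, such as ATCG00470 in ethanol against water plants (0.06, and -0.11 without ethanol replicate 2). Of named calls, 44 of 70 held under all alternatives and omissions. The counts of rises after freezing on water and on ethanol without freezing, and of falls on water against start, stayed within 1.5 times under every setting other than omissions. Rises after freezing on ethanol were 30 with library totals alone, 23 with the replicate block, 24 with only the groups compared and 6 with log2 library total as a covariate. Rises of frozen ethanol against frozen water plants were 6 without the filter, 5 with the block, 7 with only the groups compared, 5 after thinning, 0 with the covariate and 1 without the shallowest library of each group. Rises of ethanol plants against start were 2 with totals alone, the block or DESeq2, 3 with only the groups compared and 4 with the covariate. The cause was not tested. The covariate and the omission of the shallowest libraries were chosen after seeing the data. Leaving out single libraries, rises ranged from 29 to 43 after freezing on water, 6 to 28 after freezing on ethanol, 15 to 36 on ethanol against water, 1 to 6 for frozen ethanol against frozen water plants and 1 to 4 for ethanol against start, and falls from 22 to 36 for water and 0 to 4 for ethanol against start. The median of ethanol against start, near 0, ran from -0.06 to 0.09. Without TMM the median of all genes was 0.14 after freezing on water and 0.12 after freezing on ethanol, against 0.00 and 0.01 with TMM. Same-numbered samples correlated at -0.119 to 0.325, and 0 to 4 of 8 matched best with their own number, so numbers were not taken to pair samples. Without ATCG00470 the chloroplast share was 2.34% in frozen ethanol, 2.12% in frozen water, 1.70% in ethanol, 1.35% in water and 1.76% in starting plants. The share without ribosomal RNA was not run, since those rows could not be named. Genes under 10 CPM rest on few counts in the shallowest libraries.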
